A study of Mus musculus with 10 samples.

Results

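Sox genes encode transcription factors that bind DNA through a high-mobility-group domain, and 10 of them are described here in the outer sulcus of the cochlea and the spiral ligament beneath it. The members were chosen by symbol: Sox2, Sox4, Sox5, Sox6, Sox8, Sox9, Sox10, Sox11, Sox12 and Sox13. These are 10 of the 18 Sox genes and of the 18725 genes in the deposited table. RNA was sequenced from 5 euthyroid and 5 hypothyroid libraries of C57BL/6J mice at postnatal day 10. In the hypothyroid group, dams drank water with methimazole at 0.05%, sodium perchlorate monohydrate at 1.0% and sucrose at 5.0% from embryonic day 17, and treatment lasted through nursing to day 10. In the euthyroid group they had vehicle, whose make-up the labels do not give. Methimazole blocks thyroid hormone synthesis and perchlorate blocks iodide uptake. The question of the series was how thyroid hormone acts on development of the outer sulcus. The labels do not say whether a library is 1 animal or a pool, nor which litter it came from, so p-values measure only the spread between these libraries and litter cannot be told apart from treatment. One protocol text in the labels names femoral head cartilage at another age, against every other label. The ear genes Otos and Coch had 3906 and 2868 CPM in the euthyroid libraries and 56.1 and 261 CPM in the hypothyroid ones.

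Sox proteins are sorted into subgroups by the sequence of their DNA-binding domain, and members of a subgroup often act in the same cells. The SoxB1 factor Sox2 marks prosensory and supporting cells of the inner ear. The SoxC factors Sox4, Sox11 and Sox12 are activators found in progenitors and young neurons. SoxD factors (Sox5, Sox6, Sox13) have no activation domain of their own, and Sox5 and Sox6 work with Sox9 on cartilage genes. The SoxE factors are Sox8, Sox9, which is needed for cartilage and the otic vesicle, and Sox10, which is needed for melanocytes and Schwann cells and is also expressed in otic epithelium.

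All 3 SoxC genes rose and Sox8 fell, so the stretch before the start site of these 4 genes is shown. Each run is the 250 bases 5′ of the RefSeq start on GRCm38.p6, 5′ to 3′ on the strand of the gene. Capitals mark the CCAAT box, a common promoter element (CCAAT, or ATTGG where it lies on the other strand), and AGGTCA (or TGACCT), the half-site that thyroid hormone receptors and other nuclear receptors can bind.
Sox4 (chr13:28953700-28953949, minus strand): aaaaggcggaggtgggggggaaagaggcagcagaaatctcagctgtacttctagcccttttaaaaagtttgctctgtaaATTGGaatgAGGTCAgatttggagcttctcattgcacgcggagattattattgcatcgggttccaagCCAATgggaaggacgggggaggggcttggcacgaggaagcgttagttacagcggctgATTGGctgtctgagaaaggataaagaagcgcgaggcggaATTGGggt
Sox11 (chr12:27342719-27342968, minus strand): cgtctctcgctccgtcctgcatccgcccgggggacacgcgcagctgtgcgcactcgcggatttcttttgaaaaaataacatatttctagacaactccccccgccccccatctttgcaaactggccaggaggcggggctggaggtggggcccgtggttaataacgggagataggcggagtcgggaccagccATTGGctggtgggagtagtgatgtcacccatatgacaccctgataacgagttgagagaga
Sox12 (chr2:152398047-152398296, minus strand): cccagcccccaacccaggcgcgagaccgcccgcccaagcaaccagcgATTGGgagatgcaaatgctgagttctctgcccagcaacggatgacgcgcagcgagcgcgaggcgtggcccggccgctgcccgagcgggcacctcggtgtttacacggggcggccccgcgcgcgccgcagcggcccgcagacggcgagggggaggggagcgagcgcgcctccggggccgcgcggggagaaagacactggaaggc
Sox8 (chr17:25570687-25570936, minus strand): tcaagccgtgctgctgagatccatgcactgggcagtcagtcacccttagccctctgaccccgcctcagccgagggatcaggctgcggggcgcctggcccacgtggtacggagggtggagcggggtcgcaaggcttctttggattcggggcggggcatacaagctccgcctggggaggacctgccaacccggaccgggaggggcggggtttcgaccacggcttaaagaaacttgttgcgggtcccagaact
A CCAAT box was found in all 3 SoxC stretches, 4 times for Sox4 and once each for Sox11 and Sox12, and was not in the Sox8 letters. Presence of the box did not follow direction over the members: the Sox2 stretch, not shown, held CCAAT 46 to 42 bases and AGGTCA 244 to 239 bases before the start although Sox2 was lower in hypothyroid tissue, Sox6 held each in some of its 6 stretches, and Sox5 and Sox13 held neither. The Sox5 stretch (143947107 to 143947356) lay inside the span of its gene, so it does not describe the bases before the outermost start. Both strands were searched, and 33.8% of 32851 such stretches in the mouse table held at least 1 CCAAT. The box of Sox11 lay 60 to 56 bases before the start and that of Sox12 203 to 199 bases before it. AGGTCA was present in the Sox4 stretch alone of these 4, from 162 to 157 bases before the start, and in 14.0% of all stretches. The Sox12 stretch was 74.4% G and C, Sox8 65.6%, Sox11 58.0% and Sox4 50.8%, against a median of 52.4%. These letters describe the stretches and show no binding.

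Library totals ran from 19781993 to 20064063 estimated counts in the euthyroid group and from 19298261 to 19407657 in the hypothyroid group. Levels are in CPM, counts scaled to a common library total with TMM factors that correct for composition, and the value after ± is the SD over the 5 libraries of a group. Fold changes are log2 of hypothyroid over euthyroid from edgeR's quasi-likelihood fit, each with an approximate standard error (SE), and p-values are adjusted over all 14862 genes tested. In bulk tissue, fewer cells of a type and less RNA per cell cannot be told apart. Of the 10 members, 9 passed the count filter, and of these 4 were higher (Sox4, Sox6, Sox11, Sox12), 2 were lower (Sox8, Sox13) and 3 did not pass (Sox5, Sox9, Sox10). Among all genes tested 71.8% passed, 37.7% higher and 34.1% lower, so the 6 of 9 members were near the background. Changes of at least 2-fold were seen in 5 of the 9 (3 higher, 2 lower) and in 17.2% of genes tested (9.25% higher, 7.91% lower). In 6 of the 10 members, among them Sox2, which was not tested, the groups did not overlap. This held for 57.9% of genes tested, a share that leaves out genes like Sox2 that missed the filter. The median gene changed by 0.04 on the log2 scale, and by 0.30 with library sizes alone, where Sox5, Sox9 and Sox10 passed as well. Sox9 also passed with TMM factors once euthyroid replicate 2 was left out.

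**Figure D1:**
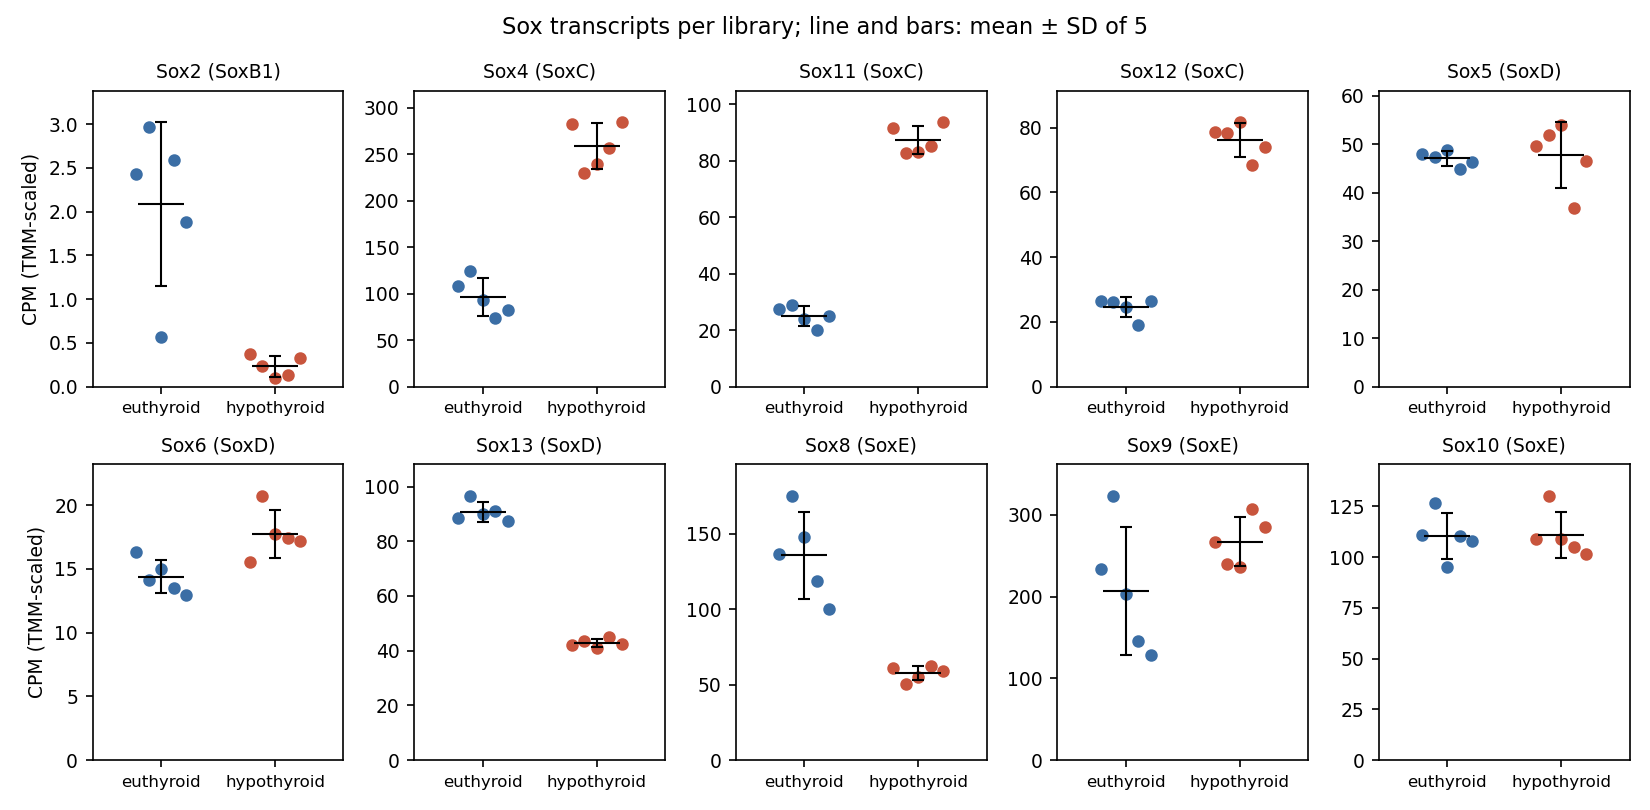
CPM of the 10 Sox genes (vertical axis from 0) in each of 5 euthyroid (blue) and 5 hypothyroid (red) libraries, with mean ± SD. The groups stand apart for Sox2, Sox4, Sox11, Sox12, Sox13 and Sox8, and overlap for Sox5, Sox6, Sox9 and Sox10.

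The 3 SoxC genes showed the largest increases of the 9 tested members. Sox4, whose product acts in progenitors and in the survival of young cells, was at 107.9, 124.8, 92.8, 74.1 and 82.3 CPM in the euthyroid libraries and at 282.9, 230.1, 238.9, 256.6 and 284.4 CPM in the hypothyroid ones. Every hypothyroid value exceeded every euthyroid value. The means were 96.4 ± 20.3 and 259 ± 24.8 CPM, a rise of 2.68-fold (log2 1.42, SE 0.13, edgeR adjusted p = 3.13e-06). Sox4 is a single-exon gene on the minus strand of chromosome 13 (28948919 to 28953699), and its exon overlaps the antisense RNA gene Gm26735 by up to 2616 bases. Whether counting used strand is not given in the sources used here, so reads of these genes could not be told apart.

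Sox11, a SoxC gene best known from the developing nervous system, had 27.4, 29.0, 24.0, 19.9 and 24.9 CPM in euthyroid tissue and 91.5, 82.8, 83.0, 85.2 and 93.6 CPM in hypothyroid tissue. The mean went from 25.0 ± 3.49 to 87.2 ± 5.00 CPM, 3.48-fold higher (log2 1.80, SE 0.08, edgeR adjusted p = 7.29e-11). Of all genes tested, 5.86% had a larger change in either direction. Sox12, the third SoxC gene, stood at 26.3, 26.3, 24.7, 19.1 and 26.4 CPM against 78.8, 78.3, 81.7, 68.4 and 73.9 CPM. Its rise was 3.10-fold (24.5 ± 3.13 to 76.2 ± 5.19 CPM; log2 1.63, SE 0.08, edgeR adjusted p = 1.71e-10). In both genes the lowest hypothyroid library was more than the highest euthyroid one. On GRCm38.p6, Sox11 lies on chromosome 12 from 27334268 to 27342718 and Sox12 on chromosome 2 from 152393611 to 152398046, both on the minus strand.

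Cycling cell genes were higher in the same comparison, and neuron genes went both ways. All 8 listed cycling genes were higher, among them Top2a, a DNA topoisomerase (6.09 to 22.2 CPM), Ccnb1, a mitotic cyclin (1.36 to 5.21 CPM) and the kinase gene Aurkb (1.36 to 4.68 CPM). Their summed level was 23.4 to 36.1 CPM in euthyroid and 74.3 to 121.7 CPM in hypothyroid libraries, and the list median log2 change was 1.60. Of 6 tested neuron genes 4 rose and 2 fell, with a list median of 1.41. Dcx, a microtubule protein gene of young neurons, went from 0.661 to 3.28 CPM, Syt1, a synaptic vesicle gene, from 14.8 to 48.7 CPM, and the RNA-binding protein gene Elavl4 from 4.10 to 1.06 CPM. Tubb3, a tubulin gene used as a general neuron marker, was 17.6-fold lower, at 12.2 ± 2.19 and 0.698 ± 0.969 CPM (edgeR adjusted p = 7.96e-05). Dcx and Nefh, another listed gene that rose, passed the count filter only through their hypothyroid libraries, and Tubb3 only through its euthyroid ones. The tally of tested neuron genes and their median therefore depend partly on the filter and support neither direction. The 11 neuron genes summed to 29.2 to 40.7 and 52.5 to 74.0 CPM, but without Syt1 the other 10 summed on average to 21.3 CPM in euthyroid and 13.8 CPM in hypothyroid libraries, with overlapping ranges, so the rise of the sum rests on Syt1. The part of these cells in the SoxC result was not tested.

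SoxD genes differed in direction. Sox13, the most abundant of them, was at 88.4, 96.6, 90.1, 91.2 and 87.3 CPM in euthyroid and 42.0, 43.4, 40.9, 45.1 and 42.5 CPM in hypothyroid libraries. These values were tight within each group and did not overlap. The mean of 90.7 ± 3.64 CPM became 42.8 ± 1.59 CPM, 2.12-fold lower (log2 -1.08, SE 0.05, edgeR adjusted p = 2.12e-11). Its gene spans 133382300 to 133424459 on the minus strand of chromosome 1.

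Sox5 and Sox6, the partners of Sox9 on cartilage genes, changed little. Sox5 had 44.8 to 48.8 CPM in euthyroid libraries and 36.8 to 54.0 CPM in hypothyroid ones, where replicate 4 was the lowest. Means were 47.0 ± 1.52 and 47.8 ± 6.73 CPM (log2 0.02, SE 0.08, edgeR adjusted p = 0.825). Sox6 went from 14.4 ± 1.32 to 17.7 ± 1.88 CPM (log2 0.30, SE 0.09, edgeR adjusted p = 0.00627). Its euthyroid range of 13.0 to 16.3 CPM overlapped the hypothyroid range of 15.6 to 20.7 CPM. With library sizes alone the value was 0.56 for Sox6 and 0.28 for Sox5 (edgeR adjusted p = 0.00409), beside the shift of 0.30 of all genes. Sox5 (chromosome 6, 143828425 to 144782287) shares exon sequence with the antisense gene Sox5os1, and Sox6 lies on chromosome 7 from 115470872 to 116040776, both on the minus strand.

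Among SoxE genes Sox8 fell, while Sox9 and Sox10 did not pass. Sox8, a gene of glia and of the developing ear, had 136.5, 175.0, 147.8, 118.5 and 99.7 CPM in the euthyroid libraries. In the hypothyroid libraries it had 60.7, 50.7, 55.2, 62.5 and 59.2 CPM, each below the lowest euthyroid value. The means of 135.5 ± 28.7 and 57.7 ± 4.74 CPM lay 2.35-fold apart (log2 -1.23, SE 0.14, edgeR adjusted p = 1.11e-05). Sox8 spans chromosome 17 from 25565893 to 25570686 on the minus strand, with up to 329 bases of an exon shared with the antisense gene 2810468N07Rik.

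Sox9, the master regulator of cartilage formation, was the member whose euthyroid libraries differed most among themselves apart from Sox2. It was at 233.4, 323.4, 203.1, 146.3 and 128.3 CPM there, a 2.52-fold span, and at 266.9, 240.4, 236.3, 306.8 and 285.0 CPM in the hypothyroid libraries, a 1.30-fold span. Replicate 2 was above all 5 hypothyroid libraries, and the other 4 euthyroid libraries were below them. Means were 207 ± 77.7 and 267 ± 29.8 CPM (log2 0.37, SE 0.24, edgeR adjusted p = 0.200). Over all alternatives the adjusted p ran from 0.0194 to 0.351. Without euthyroid replicate 2 the log2 change was 0.58 (edgeR adjusted p = 0.0194), and with library sizes alone it was 0.63 (edgeR adjusted p = 0.0476). Sox9 lies on the plus strand of chromosome 11 (112782210 to 112787757).

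Genes that Sox9 is known to act on with Sox5 and Sox6 moved both ways, and most of the abundant ones fell. Of 16 tested, 11 were lower and 5 higher, with a list median log2 change of -1.33 against 0.04 for all genes. Col9a3, a type IX collagen chain, went from 6668 ± 369 to 2170 ± 84.8 CPM, its partner chain Col9a1 from 13057 ± 467 to 5259 ± 282 CPM, and the type II collagen gene Col2a1 from 32367 ± 2003 to 12485 ± 392 CPM. Acan, the large proteoglycan of cartilage, fell 10.3-fold and Ucma, a cartilage matrix protein, 25.5-fold. The chondrocyte markers Chad and Cnmd fell 5.90-fold and 2.11-fold. Among the 5 higher genes, Matn4, a matrix adaptor protein gene, went from 43.8 ± 8.02 to 210.1 ± 19.5 CPM and Cytl1 from 93.2 ± 13.0 to 344 ± 17.8 CPM. The others were the chondrocyte markers Matn1 (10.9 to 17.7 CPM), Comp (1.38 to 4.04 CPM) and Hapln1 (0.594 to 1.90 CPM). Hapln1 passed the count filter only through its hypothyroid libraries. Col10a1, among the 11 lower genes, passed it only through its euthyroid ones. The tally and the median include both genes, and neither adds support. The 18 listed genes summed to 76772 to 87409 CPM in euthyroid and 30197 to 33179 CPM in hypothyroid libraries. Euthyroid replicate 2, with the highest Sox9 value of its group, had the lowest of its 5 cartilage sums, which is 1 library. A link between the Sox9 level and these genes was not tested.

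Sox10, a regulator of melanocytes, Schwann cells and otic epithelium, had nearly equal means in both groups. Its values were 111.1, 126.6, 95.1, 110.6 and 108.1 CPM in euthyroid and 108.9, 130.2, 108.9, 105.2 and 101.4 CPM in hypothyroid libraries. The means were 110.3 ± 11.2 and 110.9 ± 11.2 CPM (log2 0.01, SE 0.08, edgeR adjusted p = 0.930). With library sizes alone the change was 0.27 (edgeR adjusted p = 0.00744), less than the 0.30 by which the median gene moved. Sox10 is on the minus strand of chromosome 15 from 79154913 to 79164490.

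Melanocyte markers mostly rose and Schwann cell and glia genes went both ways, while the level of Sox10 stayed within its spread. Of 10 tested melanocyte genes 8 rose and 2 fell, and their 11 genes summed to 669 to 906 CPM in euthyroid and 1093 to 1980 CPM in hypothyroid libraries. Pmel, a pigment fibril gene, went from 15.1 ± 2.26 to 141.2 ± 45.7 CPM and Gpr143, a receptor of pigment organelles, from 1.88 ± 0.197 to 5.93 ± 1.55 CPM. Tyrp1, among the 8 that rose, passed the count filter only through its hypothyroid libraries and adds no support. The 2 that fell were the receptor gene Kit and Mitf. Kit went from 69.2 ± 6.84 to 34.5 ± 4.05 CPM and Mitf from 106 ± 22.4 to 49.3 ± 6.26 CPM. Of 14 tested Schwann cell and glia genes 5 rose, 5 fell and 4 did not pass (list median -0.19), where 71.8% of all genes tested passed. S100b, a calcium-binding protein gene of glia that cartilage also expresses, made up most of their sum and fell from 4561 ± 810 to 396 ± 58.8 CPM. Without S100b, the other 15 genes summed to 328 to 437 CPM in euthyroid and 317 to 386 CPM in hypothyroid libraries, which overlapped. The myelin gene Pmp22 fell 1.54-fold and the connexin gene Gjc3 rose 1.95-fold. Pou3f1, among the 5 that rose, passed the count filter only through its hypothyroid libraries and adds no support. The part of either cell type in the level of Sox10 was not tested.

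**Figure D2:**
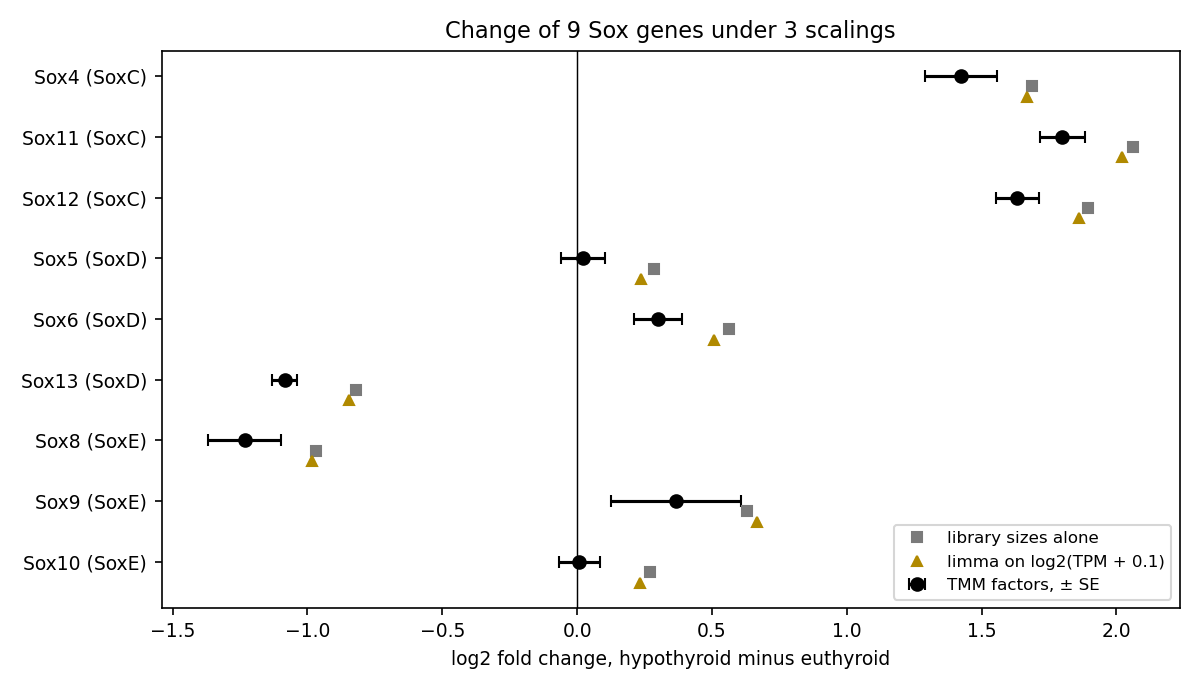
Log2 fold change, hypothyroid minus euthyroid (horizontal axis), of the 9 Sox genes that passed the count filter, from edgeR with TMM factors (black, ± SE), edgeR with library sizes alone (grey squares) and limma on TPM (yellow triangles). Both alternatives lie to the right of the TMM value for every gene shown. Sox4, Sox11 and Sox12 stay above 0 and Sox13 and Sox8 stay below it in each scaling, whereas Sox5 and Sox10 are near 0 with TMM factors and above 0 in the other 2.

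Sox2, the only SoxB1 member, was the rarest of the 10 and missed the count filter. It had 2.43, 2.96, 0.564, 2.59 and 1.88 CPM in euthyroid libraries and 0.374, 0.238, 0.0964, 0.138 and 0.330 CPM in hypothyroid libraries. The groups did not overlap, but euthyroid replicate 3 was far below the other 4, and it is the library through which the filter failed (0.506 CPM on library size, where 0.51 was needed in 5 libraries). Summed over libraries there were 190 counts against 25. Mean CPM was 2.09 ± 0.935 and 0.235 ± 0.119, a ratio of 8.87. Without a count filter, edgeR gave a log2 change of -3.12 (adjusted p = 1.14e-05). Among fits without a count filter the size ran from -3.17 with DESeq2 to -2.02 (4.04-fold) with limma on FPKM. Values of -3.36 with edgeR without euthyroid replicate 3 and -2.44 (5.41-fold) with limma on TPM add no support. In both of these fits Sox2 entered only through its euthyroid libraries. Sox2 is a single-exon gene on the plus strand of chromosome 3 (34649995 to 34652461) that lies within the span of the RNA gene Sox2ot.

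More of the listed hair cell and supporting cell genes were lower than higher in hypothyroid tissue. The 8 hair cell genes summed to 47.7 to 103.0 CPM in euthyroid and 35.4 to 45.5 CPM in hypothyroid libraries, and euthyroid replicate 3 had the lowest sum of its group. Replicate 2, with the highest Sox2 level, had the next lowest sum, 52.3 CPM. Of the 8, 6 fell, 1 rose and 1 did not pass (list median -3.05). Ocm, a calcium buffer gene of outer hair cells, had 30.0 CPM in euthyroid and 0.0378 CPM in hypothyroid tissue. The gene of the hair cell motor protein prestin, Slc26a5, was at 7.08 CPM and at 0 in all hypothyroid libraries, at least 250.1-fold lower when 3 counts are set over that group, and the list median with it at this bound was also -3.05. Strc, a stereocilia protein gene, was at 4.53 and 0.0752 CPM and the acetylcholine receptor gene Chrna10 at 2.11 and 0.0655 CPM. Ocm, Slc26a5, Strc and Chrna10 passed the count filter only through their euthyroid libraries. The tally of hair cell genes and their median therefore depend partly on the filter and support neither direction. The other listed hair cell genes changed less: Otof fell 2.36-fold with overlapping ranges and Espn fell 1.60-fold. Tmc1 did not pass (log2 -0.42, edgeR adjusted p = 0.0804). Myo7a, a hair cell myosin gene that other cells also use, rose from 12.5 to 30.8 CPM. Of 8 tested supporting cell and prosensory genes 6 fell and 2 rose. Otoa, a surface protein gene, fell from 17.9 to 5.05 CPM and the receptor gene Fgfr3 from 62.3 to 20.4 CPM. The cell cycle inhibitor gene Cdkn1b fell from 163 to 109 CPM. Tectb, also among the 6, passed the count filter only through its euthyroid libraries and adds no support. The 2 that rose, both with overlapping ranges, were Jag1 and Prox1. Jag1 went from 18.2 to 25.8 CPM (edgeR adjusted p = 0.00115). Prox1 went from 1.90 to 2.74 CPM (edgeR adjusted p = 0.0204). The 9 listed genes summed to 294 to 374 and 180 to 199 CPM, and euthyroid replicate 3 again had the lowest sum of its group. A link between the Sox2 level and either list across libraries was not tested. The part of these cells in the Sox2 result was not tested.

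Levels of different genes were compared in TPM, which adjusts for transcript length. In euthyroid libraries the order was Sox9 (114 TPM), Sox8 (104), Sox10 (93.4), Sox13 (60.2), Sox4 (46.0), Sox5 (16.4), Sox12 (12.6), Sox11 (6.73), Sox6 (3.65) and Sox2 (1.96). Neighbours whose ranges overlapped were Sox9 and Sox8, Sox8 and Sox10, and Sox13 and Sox4. In hypothyroid libraries it was Sox9 (172 TPM), Sox4 (144), Sox10 (109.6), Sox8 (51.5), Sox12 (45.7), Sox13 (33.5), Sox11 (27.4), Sox5 (19.5), Sox6 (5.24) and Sox2 (0.258). There the ranges of Sox9 and Sox4, of Sox4 and Sox10, and of Sox8 and Sox12 overlapped. Sox4 stood at rank 5 in the euthyroid and at rank 2 in the hypothyroid libraries.

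As a description of the pool of Sox mRNA, SoxC genes made up 14.3% ± 1.2 of the summed TPM of the 10 members in euthyroid and 35.7% ± 1.66 in hypothyroid libraries. The SoxE share was 67.4% ± 2.91 and 54.7% ± 1.69, while the summed SoxE level was 311 ± 76.2 and 333 ± 22.2 TPM, with overlapping ranges. The SoxD share was 17.9% ± 2.55 and 9.59% ± 0.628, at summed levels of 80.3 ± 4.0 and 58.2 ± 1.43 TPM, and SoxC levels summed to 65.4 ± 13.0 and 217 ± 18.1 TPM. Sox2 contributed 0.427% and 0.0418%. The ranges of the SoxC share were 12.7% to 15.8% and 33.8% to 37.3%. The summed level itself was 372 to 604 TPM and 560 to 642 TPM, which overlapped through euthyroid replicate 2.

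**Figure D3:**
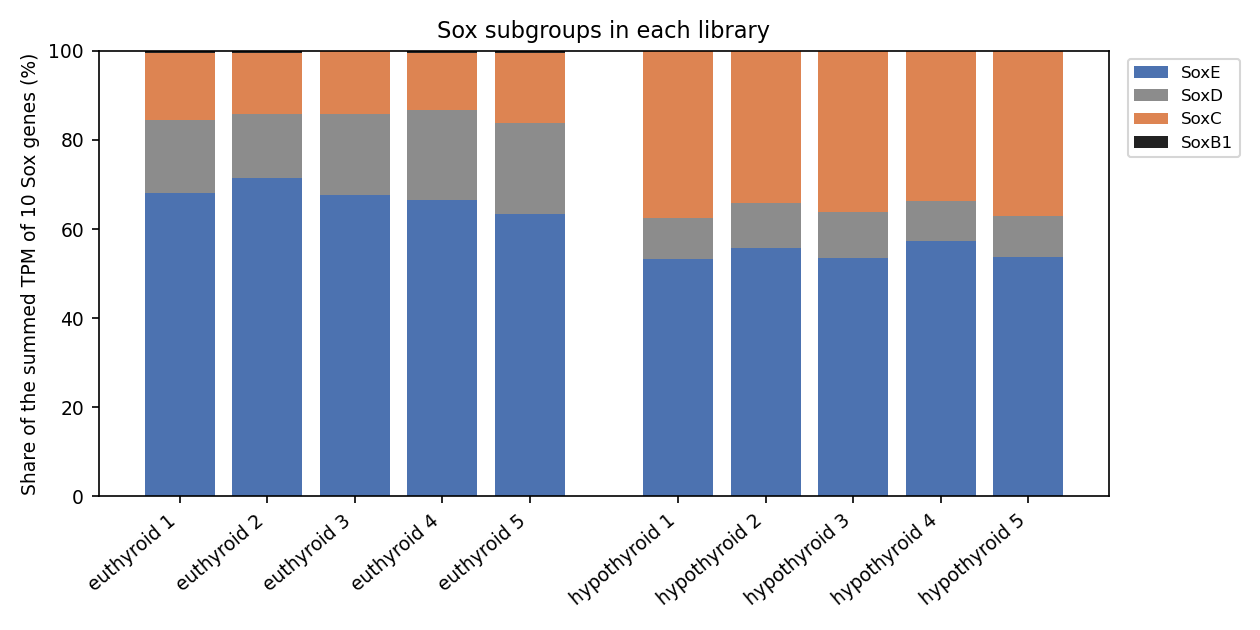
Share (%) of each Sox subgroup in the summed TPM of the 10 Sox genes, 1 bar per library. The SoxC part lies between 12.7% and 15.8% in the 5 euthyroid bars and between 33.8% and 37.3% in the 5 hypothyroid bars.

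Ratios of paralogs within a library hardly depend on library scaling, and the 9 pairs within SoxC, SoxD and SoxE were compared between groups as log2 ratios of TPM + 0.1 with two-sided exact permutation tests. In 5 pairs the ratio differed without overlap, each with an exact permutation p = 0.00794, the smallest possible, and a Benjamini-Hochberg value of 0.0143 over the 9 pairs. Sox8 and Sox9 showed the widest shift: Sox8 had 0.944 times the level of Sox9 in euthyroid libraries and 0.301 times in hypothyroid libraries, and the log2 ratio moved by -1.65, from -0.08 ± 0.258 to -1.73 ± 0.086. Although Sox9 alone varied 2.52-fold among euthyroid libraries, the log2 ratio of Sox8 to Sox9 there ran from -0.41 to 0.17. Sox8 against Sox10 moved by -1.22 (1.09 to 0.470 times). Sox5 and Sox6 each gained on Sox13, by 1.08 and 1.35.

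Within SoxC, Sox11 gained slightly on Sox4: Sox4 had 6.68 times the level of Sox11 in euthyroid and 5.24 times in hypothyroid libraries, a log2 shift of -0.35. The shift of Sox4 against Sox12 was -0.19 (exact permutation p = 0.143, the same after adjustment), and that of Sox11 against Sox12 was 0.16 (p = 0.0714, adjusted 0.0918, exact permutation). Sox5 against Sox6 shifted by -0.27 (exact permutation p = 0.0556, adjusted 0.0833), and Sox9 against Sox10 by 0.43 (exact permutation p = 0.143). These 4 shifts did not pass.

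**Figure D4:**
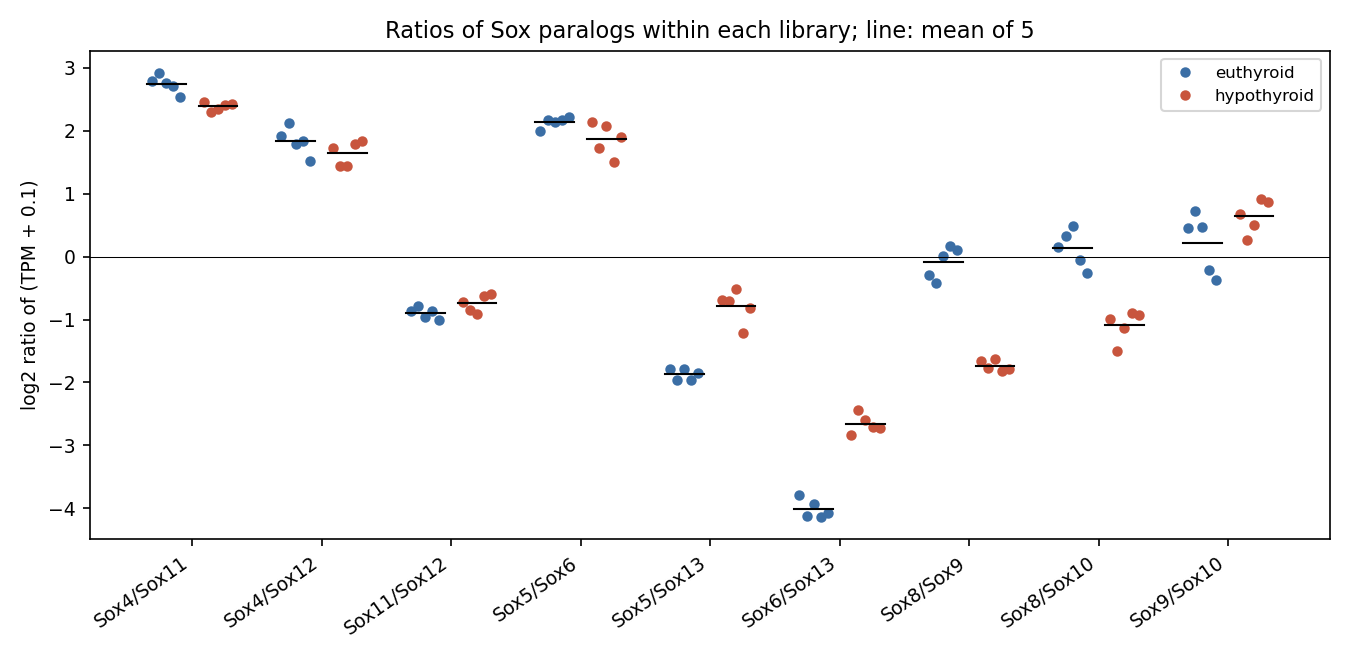
Log2 ratio of TPM + 0.1 (vertical axis) for 9 pairs of Sox genes of the same subgroup, 1 point per library, euthyroid in blue and hypothyroid in red, with group means as lines. Sox8/Sox9, Sox8/Sox10, Sox5/Sox13, Sox6/Sox13 and Sox4/Sox11 separate between the groups, and the other 4 pairs overlap.

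The remaining 8 Sox genes of the table were mostly rare. Sox17, Sox18 and Sox7 are the SoxF genes of blood vessel endothelium. Sox17 fell 1.53-fold (31.3 ± 5.35 against 20.4 ± 3.90 CPM; edgeR adjusted p = 0.00144), Sox18 had 17.8 ± 4.38 and 16.5 ± 2.87 CPM (edgeR adjusted p = 0.561), and Sox7 8.23 ± 1.07 and 6.78 ± 1.32 CPM (edgeR adjusted p = 0.0830). Among the 11 endothelial markers there were 8 lower, 1 higher and 2 not passing (median -0.47), with the receptor genes Flt1 and Tie1 and the sialomucin gene Emcn 2.64-fold, 1.75-fold and 1.38-fold lower, and their sums were 918 to 1177 and 714 to 833 CPM. Sox30, a gene of male germ cells, had 0.386 and 0.840 CPM (35 and 89 counts over the groups), with overlapping ranges (edgeR adjusted p = 0.00414). It passed the count filter only through its hypothyroid libraries, so this p-value adds no support. Sox15 had 18 and 80 counts over the groups, Sox21, which like Sox2 marks otic sensory epithelium, 107 and 15, Sox3 24 and 15, and Sox1 2 and 1, and none of these 4 passed the filter.

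Other listed cell types in the tissue also differed between the groups, and their part in the Sox results was not tested. Root cell and outer sulcus genes summed to 8043 to 8788 CPM in euthyroid and 3351 to 4059 CPM in hypothyroid libraries, with 6 of 9 lower, 2 higher and 1 not passing (the potassium channel gene Kcnj16 24.4-fold and Sparcl1 2.49-fold lower, Dpp10 7.09-fold higher). Fibrocyte genes summed to 15448 to 18881 and 6540 to 7536 CPM, with 5 of 9 lower and 4 higher (the sodium pump gene Atp1b1 5.59-fold lower, the matrix gene Tgfbi 3.32-fold higher and Aqp1, a water channel, 2.68-fold higher). Of 12 bone genes 10 were lower and 2 did not pass, at sums of 1741 to 2631 and 450 to 978 CPM. The osteocyte genes were Dmp1 at 203 and 11.2, Mepe at 31.7 and 0.228 and Sost at 17.2 and 0.113 CPM. Mepe, Sost, Bglap and Bglap2 passed the count filter only through their euthyroid libraries, so they add no support to this tally. All 7 macrophage genes were higher, at sums of 205 to 231 and 343 to 461 CPM, among them the receptor genes Mrc1 (2.13-fold), Csf1r (1.47-fold) and Lyve1 (29.3-fold).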

How the data were processed

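The authors sequenced polyadenylated RNA as single-end reads of 50 bases, per the labels' protocols. HISAT2 2.0.4, Bowtie2 2.2.5, RSEM 1.2.12 and build GRCm38.p6 are named by the submitters' processing notes, without their roles. The authors deposited expected counts, FPKM and TPM per gene and library, per the file headers; FPKM and TPM adjust for length and library total. Expected counts were rounded. Genes were kept with filterByExpr (minimum count 10; 14862 of 18725), scaled with TMM factors (mean 0.912 in euthyroid, 1.10 in hypothyroid libraries) and tested with edgeR 4.0.16 (quasi-likelihood, robust, two-sided, adjusted p under 0.05); SE is the absolute log2 change over the square root of F. limma 3.58.1, DESeq2 1.42.0, R 4.3.3, Python 3.11.15 and matplotlib 3.10.9 were also used. The scripts were tested on simulated data. Over 20 pairs of libraries within groups the mean chi-square per gene was 5.39 to 15.7, above sampling noise, so none was taken as a duplicate. Members and lists were chosen with earlier results of these data known. Named genes are all Sox genes of the table and the 3 best by adjusted p in each list and defining cell type markers. Ucma, Matn4, Cytl1 and Col10a1 fall outside this rule and were named after their values were seen. Gene spans and promoter stretches are from RefSeq (8 of 10 members had a stretch) and overlaps from GENCODE M21, all on GRCm38.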

Additional observations from a re-analysis of the deposited data

Results flagged for a closer look

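Among 36 groups of 5 libraries (18 Sox genes in each group), 5 had 1 library far from the other 4 by Dixon's gap test, which picks about 1 in 20 groups by chance. Sox12 was at 19.1 CPM in euthyroid replicate 4, below 24.7 to 26.4 CPM in the others. Sox10 was at 130.2 CPM in hypothyroid replicate 2, above 101.4 to 108.9 CPM. Sox17 was at 27.3 CPM in hypothyroid replicate 4, above 18.2 to 19.5 CPM. Sox21 was at 0.395 CPM in euthyroid replicate 3, below 1.24 to 1.52 CPM; Sox2 was lowest in the same library. Sox1 was at 0.0482 CPM in hypothyroid replicate 3, which is 1 count, and at 0 in the other 4.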

How the results depend on the processing

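The 6 called members kept their direction and their call in all 21 alternatives. Over these, the log2 change ran from 1.34 to 1.70 for Sox4, from 1.72 to 2.06 for Sox11, from 1.55 to 1.896 for Sox12, from 0.24 to 0.56 for Sox6, from -1.33 to -0.91 for Sox8 and from -1.11 to -0.77 for Sox13. The count of higher members was 4 as reported and 7 with library sizes alone, on FPKM (with pseudocount 0.1 or 1, and without a filter) and on TPM, where Sox5, Sox9 and Sox10 also passed. In those settings the median of all genes moved by 0.22 to 0.30, and 74.7% of called genes were higher with library sizes alone against 52.5%. Without single libraries the counts were 4 to 5 higher and 2 to 3 lower; the fifth higher member was Sox9 without euthyroid replicate 2 (0.58), and the third lower one was Sox2, where it entered the fit. Sox5 changed sign with RLE factors (-0.0042), with DESeq2 (-0.0033) and without single libraries (-0.025 to 0.10), and Sox10 likewise (-0.017, -0.017 and -0.054 to 0.048). The shift of Sox5 against Sox6 passed without hypothyroid replicate 1 or 3 (range -0.34 to -0.18 without single libraries), and no other ratio changed its side of the threshold. Sox2 was lower in the 10 fits that held it (log2 -3.36 to -2.02). In 6 of them, each without 1 library, and in limma on TPM, it entered only through its euthyroid libraries, so these add no support. The replicate number as a block left 4 members higher and 2 lower, and gave 5453 higher and 4939 lower genes against 5603 and 5064. Same-numbered libraries did not deviate together (correlations of -0.0774 to 0.108, 1 of 5 euthyroid libraries closest to its own number), so the numbers were not taken as pairs. Causes of these changes were not tested. Depth limits the rare genes: Sox2 rests on 25 counts in the hypothyroid group.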
